A study of Mus musculus with 10 samples.

Results

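The question addressed here was whether the change in chromatin accessibility of mouse colon organoids between 2 culture media depended on the aryl hydrocarbon receptor (AHR), that is, whether the change from WENR to d4 ENR in AHR KO organoids differed from the same change in WT organoids. All 10 of the 10 ATAC-seq libraries of the series entered, since every library belongs to 1 of the 4 groups that this difference needs. There were 2 WT libraries in WENR, 3 WT libraries in d4 ENR, 3 AHR KO libraries in WENR and 2 AHR KO libraries in d4 ENR. The organoids were derived from colonic crypts of C57BL/6 mice. AHR KO organoids came from Villin-Cre Ahr fl/fl animals, in which the Villin promoter drives Cre recombinase in intestinal epithelium, and WT organoids came from wildtype littermates. All organoids were first cultured in WENR, a medium with Wnt3a, EGF, Noggin and R-spondin to which the study also added inhibitors of p38 and ALK5 and nicotinamide. The d4 ENR groups were then kept for 4 days after withdrawal of Wnt3a, in a base medium that per the methods lacks these additions too, so that their effects cannot be told apart. Live sorted cells were used for every library. The labels do not say whether libraries of a group came from separate animals or cultures, so that p-values measure only the spread between these libraries.

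AHR is a ligand-dependent transcription factor that dimerises with ARNT on activation and induces genes such as Cyp1a1 and Cyp1b1. In colon organoids, Wnt ligand maintains stem and progenitor cells, and its withdrawal lets cells mature into absorptive colonocytes and secretory cells. An ATAC-seq peak marks DNA that the transposase could reach, usually a promoter or an enhancer, and its height in a bulk library reflects both how many cells are accessible at the site and how accessible each cell is. Fewer cells of a type and less accessibility per cell therefore cannot be told apart.

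Every gene was given a locus, its body plus flanks of 5 kb, and a promoter, the window from 1 kb upstream to 100 bp downstream of the start site (GRCm38). Each was given 2 values per library, namely the highest fold enrichment (fragment pileup divided by that library's local background, averaged over a peak) and the number of bases covered by peaks. Both were converted to percentiles within the library, since the libraries differed in quality. The interaction is the d4 ENR minus WENR change in percentile in AHR KO minus that change in WT, in percentile points. A positive interaction therefore says that the AHR KO change was higher than the WT change, whichever way either of them went. Loci (16991 genes) and promoters (13043 genes) with a peak in at least 2 libraries were tested, with limma and an adjusted p under 0.05 (Benjamini-Hochberg) as the threshold for a call.

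The libraries themselves moved with the groups. Each library held 30354729 to 49126792 fragments and 33433 to 65308 peaks. Between 63.0% and 68.6% of fragment coverage lay in peaks in the 5 WENR libraries, 14.1%, 24.4% and 30.9% in the 3 WT d4 ENR libraries, and 33.8% and 44.2% in the 2 AHR KO d4 ENR libraries. Fragments averaged 156 to 200 bp in WT d4 ENR, 202 and 221 bp in AHR KO d4 ENR and 235 to 255 bp in WENR. The AHR KO change minus the WT change was +12.6 percentage points for the share of coverage in peaks (exact permutation test, two-sided p = 0.32; the smallest p that its 100 arrangements allow is 0.02), +36.5 bp for the fragment length (p = 0.2) and +13.6 Mb for the covered length (p = 0.18). A p that misses the threshold does not show that these changes were alike. WT d4 ENR thus had the lowest share of coverage in peaks of the 4 groups. In 344 of the 389 calls given below, its mean percentile also lay furthest from the mean of the other 3 groups. The 389 calls pool comparisons that share genes, with 67 genes called at promoters by both measures. How often WT d4 ENR was the furthest group among all tested genes was not counted. The 344 calls, and the similar counts given below, therefore have no background rate to be read against. Of 14 markers of colon epithelium, 13 or 14 had a promoter peak in every library, against 0 of 12 immune cell markers, 0 to 4 of 12 mesenchymal markers and 0 to 4 of 12 endothelial and nerve markers. Ahr itself had a peak at its start site in all 10 libraries. The peak lists give no reads over the deleted exon, so this peak does not check the genotype labels.

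**Figure D1:**
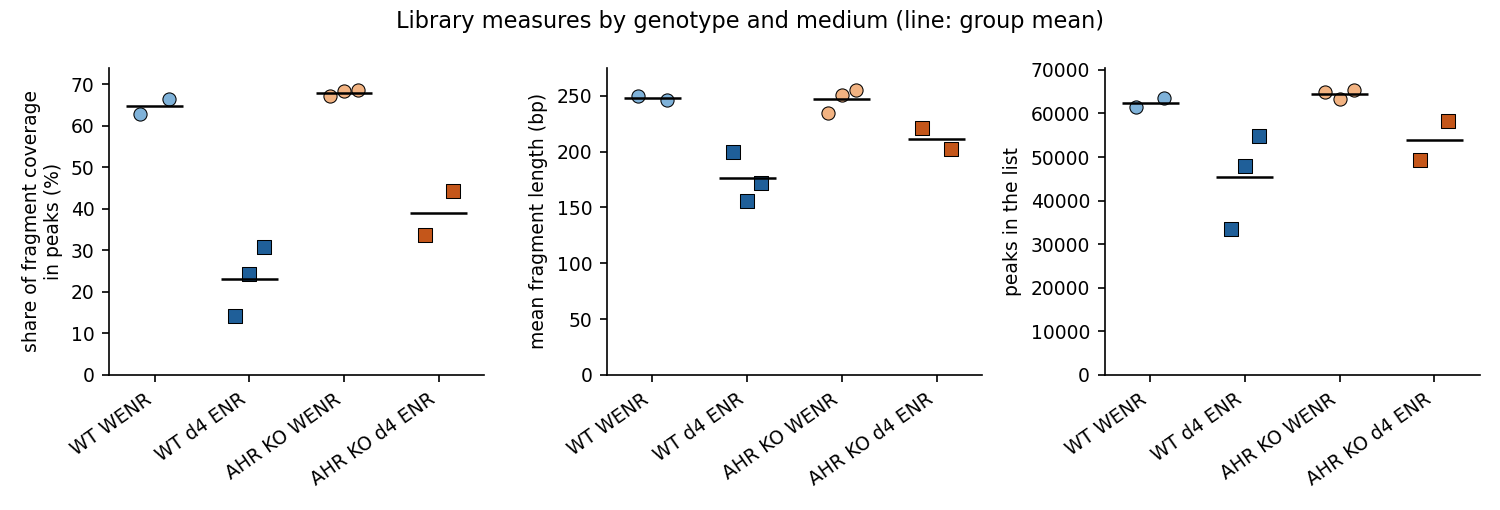
Share of fragment coverage in peaks (%), mean fragment length (bp) and number of peaks in each library by group. Points are libraries and lines are group means. All 3 WT d4 ENR libraries, at 14.1% to 30.9% of coverage in peaks, lie below both AHR KO d4 ENR libraries.

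In the rank of fold enrichment over gene loci, 25 genes were called. The AHR KO change was higher for 15 of 16991 genes (0.0883%) and lower for 10 (0.0589%). The genes with a higher AHR KO change included Srp54c, Btnl9, Cstl1 and Cdx4, with interactions of 24.6 to 73.5 percentile points (median 43.9). Those with a lower AHR KO change included Osbp, Lap3, S100a6 and Fam180a, with interactions of -44.1 to -28.6 points (median -40.6). Without a test, every AHR KO difference between a d4 ENR and a WENR library was above every WT one in 1502 genes (8.84%) and below every WT one in 1653 genes (9.73%), a pattern called full separation here. The 25 calls depended on the library set, since leaving out any one of the 5 WENR libraries or the 2 AHR KO d4 ENR libraries left 0 calls. When the peak lists were made equal in length, the split was 18 higher and 24 lower. With the share of coverage in peaks as a covariate there were also 0 calls (2374 genes at an unadjusted p under 0.05, against 2323 without it).

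**Figure D2:**
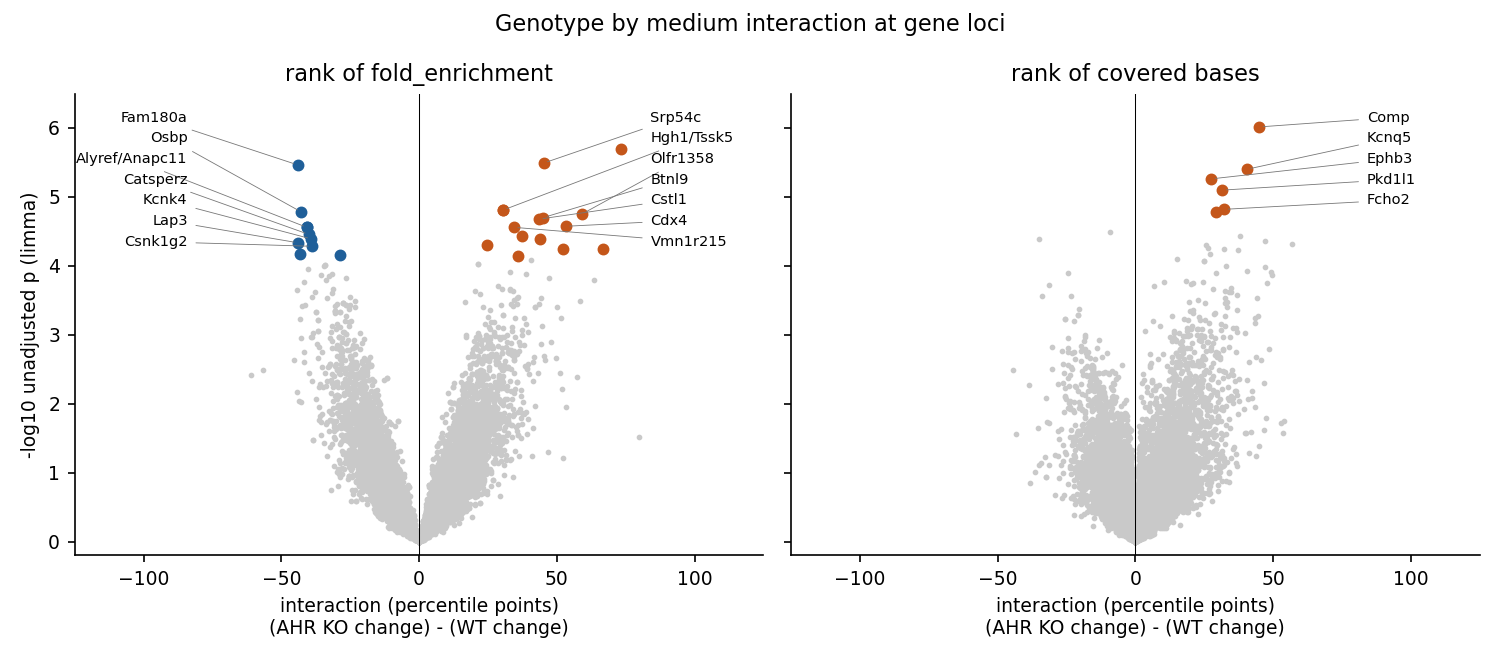
Interaction at gene loci (x axis, percentile points) against the unadjusted limma p (y axis, minus log10) for fold enrichment and for covered bases. Each point is a gene, with called genes coloured by direction: 15 higher and 10 lower for fold enrichment, 6 higher and 0 lower for covered bases.

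The sequences of 4 regions that carried called interactions at sites away from a start site are shown first. Last comes that of an intronic region of Ephb3, a gene described further on by the covered bases of its whole locus. Each is the central 300 bp of the region, plus strand, GRCm38.p6 reference, in lower case, and the capitals mark matches to the searched motifs.
Cdx4, chrX:103331375-103331674, intergenic, downstream of the gene: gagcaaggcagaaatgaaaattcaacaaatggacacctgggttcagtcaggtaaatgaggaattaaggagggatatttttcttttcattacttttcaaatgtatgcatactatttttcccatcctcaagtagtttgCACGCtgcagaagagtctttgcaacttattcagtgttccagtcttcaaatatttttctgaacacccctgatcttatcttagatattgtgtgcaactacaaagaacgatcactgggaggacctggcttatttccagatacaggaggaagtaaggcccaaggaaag
Olfr1358, chr10:78525311-78525610, intergenic, downstream of the gene: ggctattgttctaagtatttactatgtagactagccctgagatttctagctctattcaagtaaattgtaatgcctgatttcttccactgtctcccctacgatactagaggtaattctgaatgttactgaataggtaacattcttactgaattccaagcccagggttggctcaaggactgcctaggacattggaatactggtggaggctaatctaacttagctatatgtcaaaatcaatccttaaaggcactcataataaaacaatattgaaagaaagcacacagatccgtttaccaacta
Cstl1, chr2:148752184-148752483, intron: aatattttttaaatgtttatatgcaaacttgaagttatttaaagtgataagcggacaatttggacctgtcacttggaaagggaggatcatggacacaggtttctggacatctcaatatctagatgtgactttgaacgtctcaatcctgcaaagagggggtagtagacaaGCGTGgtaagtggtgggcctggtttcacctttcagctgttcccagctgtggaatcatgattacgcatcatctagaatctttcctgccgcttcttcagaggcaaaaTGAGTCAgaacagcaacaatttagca
Fam180a, chr6:35323228-35323527, intron: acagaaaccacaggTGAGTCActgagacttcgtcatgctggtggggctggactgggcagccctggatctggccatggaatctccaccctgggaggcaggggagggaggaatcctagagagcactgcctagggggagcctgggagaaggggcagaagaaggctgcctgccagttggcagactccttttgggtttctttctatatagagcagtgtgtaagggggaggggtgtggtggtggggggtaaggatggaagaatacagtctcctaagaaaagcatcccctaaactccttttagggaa
Ephb3, chr16:21210628-21210927, intron: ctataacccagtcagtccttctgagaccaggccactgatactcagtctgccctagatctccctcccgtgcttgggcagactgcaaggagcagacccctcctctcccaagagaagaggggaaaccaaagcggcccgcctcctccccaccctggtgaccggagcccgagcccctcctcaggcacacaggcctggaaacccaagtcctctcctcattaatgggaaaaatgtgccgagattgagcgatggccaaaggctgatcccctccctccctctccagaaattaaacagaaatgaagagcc
Both strands were searched for GCGTG (the AHR/ARNT core), GGAATG (TEAD), TGANTCA (AP-1), TTTATNG (CDX), CAAAGTCCA (HNF4), CTTTGAT (TCF/LEF), CCGGAAG (ETS) and the CTCF core. The AHR/ARNT core was matched once each in the Cdx4 and Cstl1 windows, and 21.9% of all 85679 regions of the same length held it. The AP-1 motif was matched once each in the Cstl1 and Fam180a windows, against 19.4% of all regions. The Olfr1358 and Ephb3 windows held none of the 8 motifs, whose shares over all regions were 18.3% for TEAD, 19.9% for CDX, 1.23% for HNF4, 4.75% for TCF/LEF, 3.21% for ETS and 1.4% for the CTCF core. These are matches of letters and not measured binding sites.

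Cdx4, a caudal-type homeobox transcription factor of the same family as Cdx2, showed an interaction of +53.2 ± 7.42 points (SE; limma, adjusted p = 0.0363). At the region downstream of the gene (chrX:103331041-103332010), fold enrichment was 5.53 and 4.68 in WT WENR, 2.97, 4.22 and 4.55 in WT d4 ENR, 4.27, 4.10 and 2.68 in AHR KO WENR, and 6.03 and 6.60 in AHR KO d4 ENR. Both AHR KO d4 ENR libraries were thus above all 8 others, and the WT d4 ENR libraries were all below the WT WENR ones. The mean percentile was 51.0 in WT WENR and 41.8 in WT d4 ENR, against 33.4 and 77.3 in AHR KO. Btnl9, a member of the butyrophilin-like family, had a highest fold enrichment, at an intronic region (chr11:49175630-49176924) in 9 of the 10 libraries, of 5.72 and 5.66 in WT WENR, 3.02, 4.24 and 4.83 in WT d4 ENR, 4.38, 4.29 and 3.4 in AHR KO WENR, and 5.51 and 5.77 in AHR KO d4 ENR. The WT d4 ENR libraries were below the WT WENR ones, while in AHR KO the d4 ENR libraries were above the WENR ones, with no overlap in either genotype. Its interaction was +45.1 ± 6.09 points (adjusted p = 0.0363).

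Cstl1, a cystatin-like gene, and Srp54c, a copy of the gene for the signal recognition particle subunit SRP54, were near the top of the ranking in WENR in both genotypes. The intronic Cstl1 region (chr2:148751852-148752817) had a fold enrichment of 9.30 and 9.11 in WT WENR, 2.53, 4.50 and 3.90 in WT d4 ENR, 10.4, 9.72 and 9.11 in AHR KO WENR, and 6.36 and 6.78 in AHR KO d4 ENR. It was lower in d4 ENR than in WENR in both genotypes, and the AHR KO d4 ENR libraries lay between the WT d4 ENR libraries and the WENR ones. Its mean percentile was 99.3 and 38.7 in WT, against 99.5 and 82.4 in AHR KO (interaction +43.5 ± 5.95, adjusted p = 0.0363). Ranked by the sum of fold enrichment times covered bases, the interactions of Cstl1 and Srp54c were -1.45 and -1.07 points. At the Srp54c start site (chr12:55230074-55231249), fold enrichment was 7.78 and 9.07 in WT WENR, 3.55, 4.86 and 5.6 in WT d4 ENR, 11.7, 11.5 and 11.1 in AHR KO WENR, and 10.2 and 12.1 in AHR KO d4 ENR. All 5 AHR KO libraries were above all 5 WT libraries, and only in WT did the d4 ENR values lie apart from the WENR ones. The peak was 331 to 431 bp long in WT d4 ENR, 570 and 761 bp in WT WENR and 862 to 1112 bp in AHR KO. The interaction was +45.2 ± 5.03 points (adjusted p = 0.0194). Srp54c has near-identical neighbouring copies on chromosome 12, which is also the chromosome of Ahr, so that its reads may be shared with those copies and the value is uncertain.

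Of the other genes with a higher AHR KO change, Hgh1 and Tssk5 share 1 peak at the Hgh1 start site (chr15:76368449-76369716) and so one measurement, with a fold enrichment of 8.71 and 8.89 in WT WENR, 4.11, 6.18 and 6.21 in WT d4 ENR, 9.06, 9.20 and 9.10 in AHR KO WENR, and 7.33 and 8.27 in AHR KO d4 ENR (interaction +30.5 ± 4.03, adjusted p = 0.0363). The AHR KO d4 ENR libraries were above the WT d4 ENR ones and below every WENR library. Olfr1358, an olfactory receptor gene, owed its value to an intergenic region (chr10:78524857-78526065) with a fold enrichment of 6.14 and 6.60 in WT WENR, no peak in 2 WT d4 ENR libraries and 3.26 in the third, 5.83, 6.07 and 5.47 in AHR KO WENR, and 5.69 and 6.01 in AHR KO d4 ENR (+59.3 ± 7.88, adjusted p = 0.0363). In AHR KO the values of the 2 media overlapped, and in the gene body alone, without that region, the interaction was -8.76 points. Vmn1r215, a vomeronasal receptor gene, had no peak in any WT d4 ENR library and a fold enrichment of 3.47 to 4.96 in the other 7 (+34.3 ± 4.85, adjusted p = 0.0363, but -11.6 points with 20 kb on each side). The remaining 7, named here after their values were seen, were 9930022D16Rik (+73.5), St8sia6 (+66.9), Acbd6 (+52.1), Adam11 (+43.9), Rabl6 (+37.4), Trub2 (+36.0) and Msrb2 (+24.6). For 12 of the 15, WT d4 ENR was the group furthest from the others.

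Osbp, which encodes an oxysterol-binding protein of lipid transfer, had a highest fold enrichment, at the start site in 8 of the 10 libraries, of 3.71 and 4.03 in WT WENR, 6.17, 8.35 and 7.84 in WT d4 ENR, 3.70, 3.85 and 3.63 in AHR KO WENR, and 4.37 and 5.31 in AHR KO d4 ENR. Both genotypes were higher in d4 ENR than in WENR, and the WT d4 ENR libraries were above all others. Its mean percentile was 34.8 and 94.9 in WT, against 32.6 and 49.9 in AHR KO, an interaction of -42.8 ± 5.70 points (adjusted p = 0.0363). The direction turned to +7.57 points in the gene body alone and to +12.9 with the sum of fold enrichment times covered bases. Peaks covered 2137 and 2142 bp of the start region in WT WENR, 796, 810 and 1136 bp in WT d4 ENR (the last in more than 1 peak, the highest of 877 bp), 2119, 2086 and 2127 bp in AHR KO WENR, and 2040 and 2018 bp in AHR KO d4 ENR. The WT d4 ENR libraries, with the highest enrichment, thus had the fewest bases of the start region covered. A short peak did not always go with a high enrichment. The highest peak of the locus was 658 bp long in WT WENR replicate 2 and 738 bp in AHR KO WENR replicate 1. Both are shorter than the highest peaks in WT d4 ENR, at a fold enrichment of 4.03 and 3.70. Fold enrichment is an average over the peak, and the part of peak length in the result was not tested.

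Lap3, a leucine aminopeptidase, was again highest in WT d4 ENR, with a highest fold enrichment, at the start site in 9 of the 10 libraries, of 3.96 and 4.36 in WT WENR, 5.83, 7.19 and 7.29 in WT d4 ENR, 3.76, 4.4 and 3.87 in AHR KO WENR, and 3.96 and 4.56 in AHR KO d4 ENR (interaction -43.9 ± 6.53, adjusted p = 0.0437). The AHR KO libraries of the 2 media overlapped. Peaks covered 1016 to 1434 bp of its start region in WT d4 ENR, in more than 1 peak of which the highest measured 671 to 906 bp, and 2235 to 2642 bp in the other 7 libraries. With the sum of fold enrichment times covered bases its interaction was +6.24 points. S100a6, a calcium-binding protein counted among the fetal-like markers, had a fold enrichment of 3.15 and 3.55 in WT WENR, 4.23, 6.23 and 6.22 in WT d4 ENR, 3.39, 3.48 and 3.28 in AHR KO WENR, and 3.70 and 4.14 in AHR KO d4 ENR (-28.6 ± 4.49, adjusted p = 0.0484). The d4 ENR libraries of each genotype were above its WENR libraries, and the lowest WT d4 ENR library was just above the highest AHR KO one. At S100a6 (start region chr3:90612762-90615804) peaks covered 1427 to 1863 bp in WT d4 ENR, in more than 1 peak of which the highest measured 1075 to 1135 bp, and a single peak covered 2816 to 3041 bp elsewhere. The interaction in covered bases was +6.51 points (adjusted p = 0.151).

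Alyref, an mRNA export adaptor, and Anapc11, a subunit of the anaphase-promoting complex, share a divergent start region (chr11:120597519-120599158) and 1 measurement. Its fold enrichment was 4.53 and 4.54 in WT WENR, 5.65, 7.82 and 7.61 in WT d4 ENR, 4.46, 4.71 and 4.71 in AHR KO WENR, and 4.59 and 5.29 in AHR KO d4 ENR (-40.6 ± 5.74, adjusted p = 0.0363). The WT d4 ENR libraries were above all others, and the AHR KO libraries of the 2 media overlapped. Catsperz and Kcnk4, a sperm channel subunit and a potassium channel, take their value from the start region of their neighbour Esrra (chr19:6920492-6922690), Kcnk4 in 8 of the 10 libraries and Catsperz in all, with -39.95 ± 5.79 and -39.0 ± 5.76 points (both adjusted p = 0.0411). That peak was 906, 1429 and 923 bp long in WT d4 ENR and 2095 to 2163 bp in the other 7 libraries. In the gene body alone the interactions of Kcnk4 and Csnk1g2 were +10.4 points each. Csnk1g2, a casein kinase, had a fold enrichment of 5.71, 7.69 and 7.98 in WT d4 ENR and 4.54 to 5.06 in the other 7 (-38.8 ± 5.89, adjusted p = 0.0442), and Snrk, named after its values were seen, had an interaction of -43.4 points.

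Fam180a was the exception, since AHR KO WENR and not WT d4 ENR stood apart. An intronic region (chr6:35323138-35323619) had a fold enrichment of 5.72, 5.40 and 5.16 in the 3 AHR KO WENR libraries and no peak in the other 7 (-44.1 ± 4.94, adjusted p = 0.0194). The locus passed the filter of a peak in at least 2 libraries only through this group, so that it had to differ, and it is not tested when 5 libraries are required. In the remaining 9 of the 10 genes with a lower AHR KO change, WT d4 ENR was the group furthest away.

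**Figure D3:**
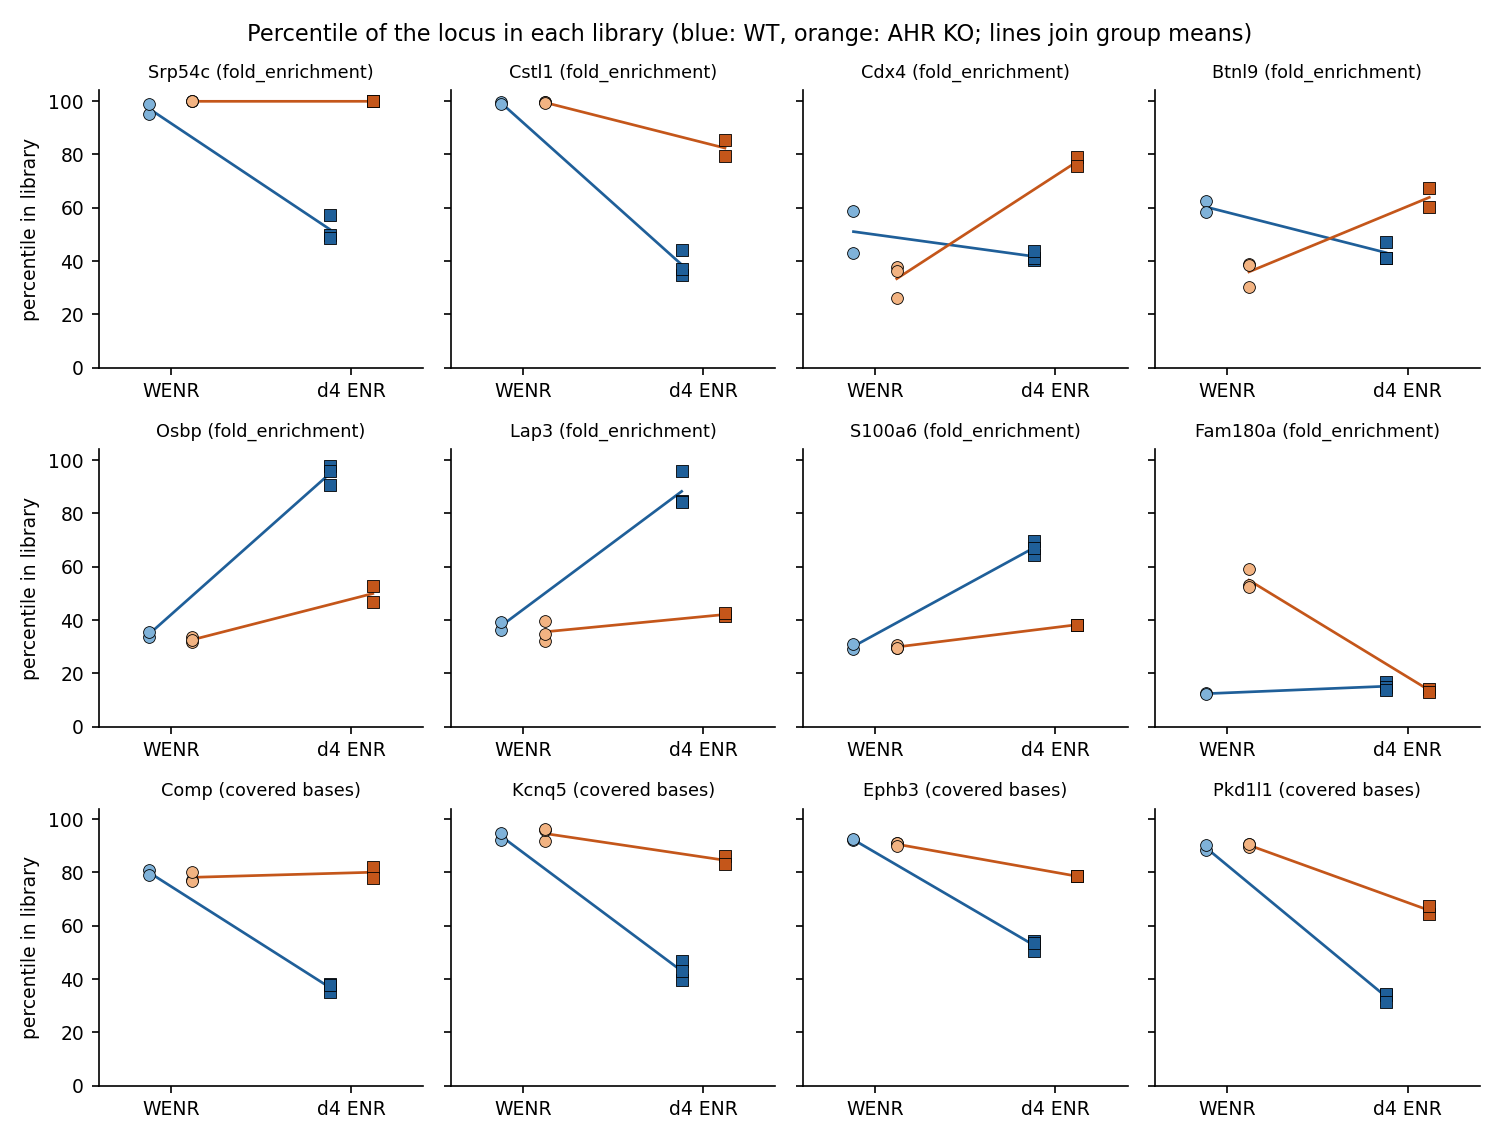
Percentile within the library for 12 genes in the 4 groups, by fold enrichment (Srp54c, Cstl1, Cdx4, Btnl9, Osbp, Lap3, S100a6 and Fam180a) or covered bases (Comp, Kcnq5, Ephb3 and Pkd1l1). Points are libraries. For Osbp, WT d4 ENR averages 94.9 against 49.9 in AHR KO d4 ENR.

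The position of the strongest region was counted next. Among all genes tested, the region with the highest enrichment overlapped the start site in 52.9%, lay inside the gene in 27.9% and downstream in 12.6%. Among the 10 genes with a lower AHR KO change, 7 had it at a start site, and among the 15 with a higher change, 6 had it at a start site and 5 downstream. Its width was compared in the same way. Over the 14235 genes with a peak in all libraries, the median interaction in log2 width was 0.27, and 12496 of them had a wider change in AHR KO. The median was 0.72 among the 9 such genes with a lower call and 0.30 among the 12 with a higher call. A wider change in AHR KO was seen in 7 of those 9 and 11 of those 12. The peak was narrower in every WT d4 ENR library than in all others in 3 of the 9 (33.3%) and 5 of the 12 (41.7%). Over all genes with a peak in all libraries this share was 39.4%, so that it did not set the lower calls apart. Genes whose promoter is rich in CpG (observed to expected ratio of at least 0.6) had a median interaction of -1.29 points (n = 5709), with full separation in 6.76% upwards and 12.65% downwards. The other 11282 genes had a median of +0.97 points, with 9.89% upwards and 8.25% downwards. Of the calls, 14 of the 15 higher and 5 of the 10 lower ones were genes outside the CpG-rich class.

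**Figure D4:**
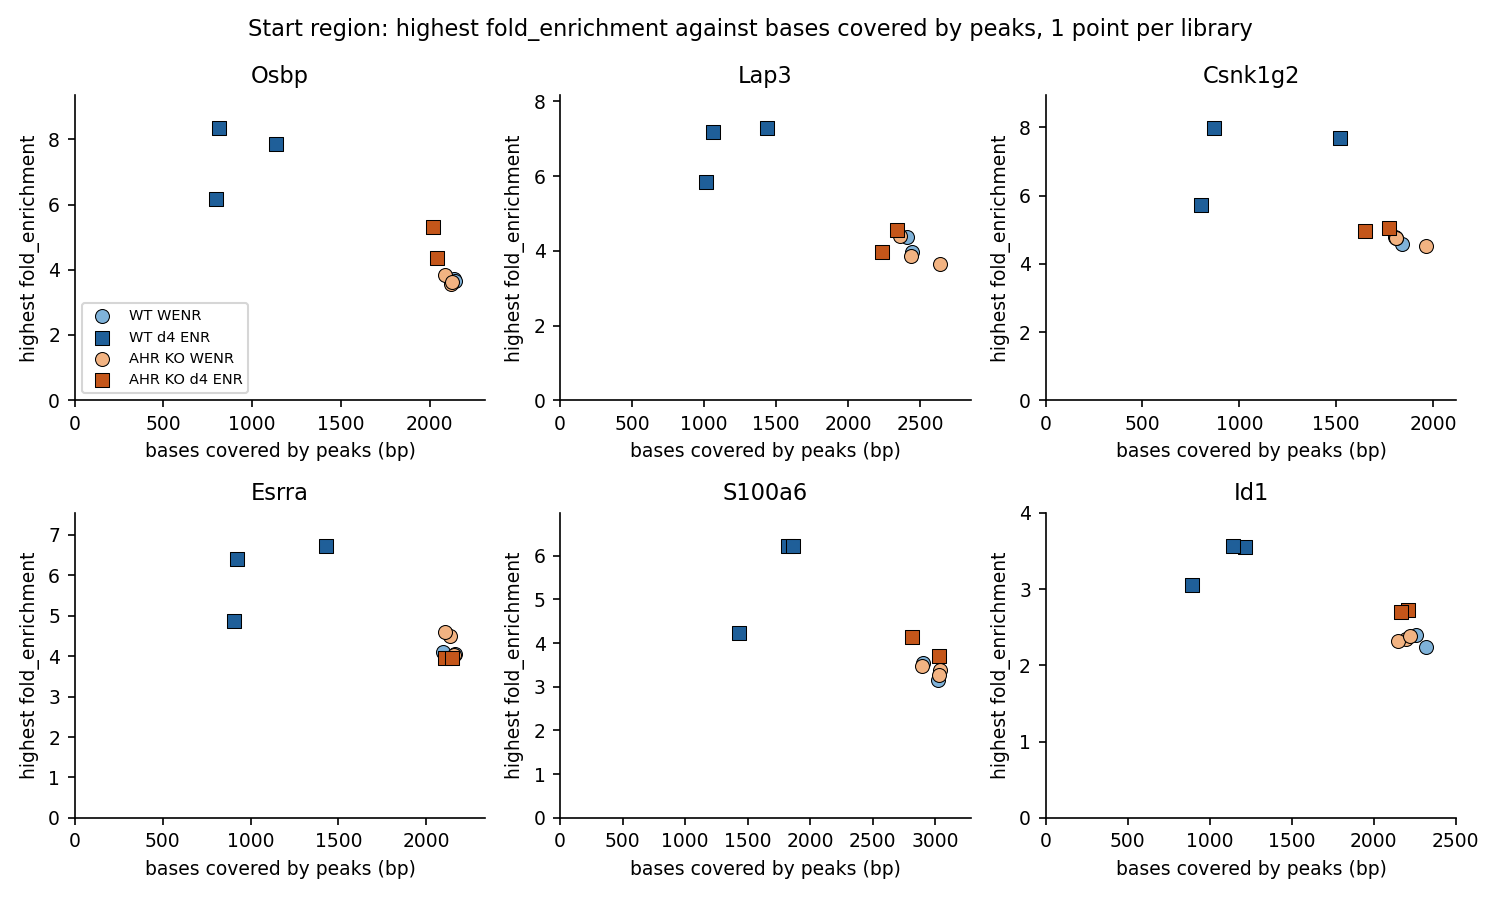
Fold enrichment (y axis) against bases covered by peaks (x axis, bp) in the start region of Osbp, Lap3, Csnk1g2, Esrra, S100a6 and Id1, with 1 point per library coloured by group. At Osbp, peaks covered 796 to 1136 bp in the WT d4 ENR libraries and 2018 to 2142 bp in the other 7.

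In the rank of covered bases over gene loci, the AHR KO change was higher for 6 genes (0.0353% of those tested), with interactions of 27.5 to 44.97 percentile points, and limma called 0 genes lower (701 were lower and 950 higher at an unadjusted p under 0.05). Full separation was seen in 7.57% of genes upwards and 10.1% downwards. All 6 called genes lost most of their covered bases in WT d4 ENR, the group furthest from the others in each. These calls also depended on the library set, since 0 calls were made without any one of the WENR libraries or AHR KO d4 ENR replicate 1, and 2 were made without AHR KO d4 ENR replicate 2. With peak lists of equal length, 100 genes were called higher and 36 lower, while 1 of the 6 was still called and 4 kept their sign. None of the 6 was among the 25 genes called by fold enrichment.

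Comp, an extracellular matrix glycoprotein of cartilage, had 3741 and 3612 covered bases in WT WENR, 471, 458 and 761 in WT d4 ENR, 3377, 3309 and 3932 in AHR KO WENR, and 3160 and 2902 in AHR KO d4 ENR. The WT d4 ENR libraries were far below all others, and the AHR KO d4 ENR libraries somewhat below AHR KO WENR (interaction +44.97 ± 3.62, adjusted p = 0.0164). Ephb3, a receptor tyrosine kinase and Wnt target that helps to position cells along the crypt, had 6327 and 6568 covered bases in WT WENR, 906, 1088 and 1283 in WT d4 ENR, 5807, 5905 and 5934 in AHR KO WENR, and 2843 and 2952 in AHR KO d4 ENR. Coverage was thus lower in d4 ENR in both genotypes, with no overlap between any of the d4 ENR groups and WENR, and the AHR KO d4 ENR libraries were between. The interaction was +27.5 ± 2.76 points (adjusted p = 0.0310), whereas that in fold enrichment was -17.7 points (adjusted p = 0.242). With peak lists of equal length the interaction in covered bases turned to -2.01 points.

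Kcnq5, a voltage-gated potassium channel, had 6429 and 8059 covered bases in WT WENR, 550, 888 and 942 in WT d4 ENR, 6089, 9114 and 10712 in AHR KO WENR, and 3629 and 3396 in AHR KO d4 ENR (+40.5 ± 3.86, adjusted p = 0.0310). Pkd1l1, a polycystin family member, had 5123 and 5703, then 223, 429 and 407, then 5694, 5440 and 6156, and 1931 and 2177 covered bases in the same order of groups (+31.5 ± 3.31, adjusted p = 0.0339). Both showed the order seen at Ephb3, with AHR KO d4 ENR between WT d4 ENR and WENR. Fcho2, which acts early in clathrin-mediated endocytosis, had 6518 and 7197, then 1328, 1238 and 1684, then 5192, 4390 and 4630, and 3811 and 4443 (+32.2 ± 3.64, adjusted p = 0.0465), and here the AHR KO d4 ENR values came close to those of AHR KO WENR and overlapped them. The remaining gene, Dnah17, an axonemal dynein heavy chain named after its values were seen, had an interaction of +29.3 points. The lower interactions with the smallest p, none of them called, were Abcb1a at -9.22 ± 1.15 and Pak3 at -35.1 ± 4.53 (both adjusted p = 0.0660), Sgcd at -24.6 (0.0873), Tmem165 at -31.3 (0.0961) and Itpr2 at -23.4 (0.112).

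At promoters, more genes were called. By fold enrichment the AHR KO change was higher for 112 of 13043 genes (0.859%) and lower for 60 (0.46%), and by covered bases it was higher for 169 (1.3%) and lower for 17 (0.13%). The split depended on the scaling, with 101 higher and 86 lower by fold enrichment in peak lists of equal length, 72 and 2 on log2 values that were not centred, and 189 and 517 by covered bases on centred log2 values. The largest of the higher interactions reached 74.6 points by fold enrichment and 72.7 points by covered bases. WT d4 ENR was the group furthest from the others in 108 of 112 and 53 of 60 genes by fold enrichment and in 153 of 169 higher genes by covered bases, while AHR KO WENR was so in 11 of the 17 lower ones. A peak that ends short of the 1101 bp window gives the gene the value of no peak. Promoters with a window peak numbered 10852 to 11833 in WT d4 ENR, 11928 and 12200 in AHR KO d4 ENR and 12629 to 12820 in WENR. The share of all tested promoters that lacked one in every WT d4 ENR library was not counted. No WT d4 ENR library had a window peak in 79 of the 112 higher genes by fold enrichment, of which 41 had a peak within 3 kb of the start site in all 3 WT d4 ENR libraries, and in 92 of the 169 by covered bases, of which 40 had one. In another 47 of the 169, peaks filled the whole window in every library outside WT d4 ENR, the highest value it can take.

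The genes with the smallest p and a higher AHR KO change by fold enrichment were of the first kind. Trim39, a ubiquitin ligase, had a fold enrichment in the window of 7.31 and 7.85 in WT WENR, no peak in the 3 WT d4 ENR libraries, 7.76, 7.82 and 7.6 in AHR KO WENR, and 8.37 and 8.29 in AHR KO d4 ENR (interaction +74.1 ± 2.75, adjusted p = 1.676e-05). Micu3, a regulator of mitochondrial calcium uptake, Lancl2, Nfatc3, a calcium-responsive transcription factor, and Uggt1, a sensor of glycoprotein folding in the endoplasmic reticulum, had interactions of +70.3, +74.6, +55.2 and +48.1 points (adjusted p of 1.676e-05 for the first 3 and 3.012e-05 for Uggt1), again with no window peak in WT d4 ENR alone. The Trim39 start-site peak itself, just inside the gene, had 6.65, 8.71 and 8.46 in WT d4 ENR, so that only its overlap with the window was absent. In the other 7 libraries peaks covered 17 to 147 bases of the Trim39 window, 7 to 34 of the Lancl2 window, 1 to 40 of the Uggt1 window, 80 to 172 of the Nfatc3 window and 160 to 229 of the Micu3 window. With 3 kb on each side of the start site, the interactions of Trim39, Nfatc3 and Uggt1 were -0.22, -0.19 and -17.2 points.

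Among lower promoter interactions by fold enrichment, Pdia5, a protein disulfide isomerase, had 4.92 and 5.30 in WT WENR, 4.35, 5.94 and 6.19 in WT d4 ENR, 6.41, 6.32 and 6.52 in AHR KO WENR, and 3.79 and 4.28 in AHR KO d4 ENR (-34.7 ± 3.22, adjusted p = 0.00242). Here the AHR KO libraries of the 2 media stood apart, and the WT ones overlapped. Scrt2, a zinc finger factor of the Snail family, had a promoter peak in AHR KO WENR alone, with a fold enrichment of 6.10, 5.19 and 5.76 (-55.0 ± 5.73, adjusted p = 0.00538). It too passed the filter only through that group, and with 3 kb on each side its interaction was +22.6 points. Esrra, an orphan nuclear receptor of mitochondrial metabolism, had a fold enrichment of 4.07 ± 0.0318 (SD, n = 2) in WT WENR, 6.0 ± 1.0 (n = 3) in WT d4 ENR, 4.38 ± 0.297 (n = 3) in AHR KO WENR and 3.96 ± 0.00424 (n = 2) in AHR KO d4 ENR. Its interaction was -29.2 ± 3.36 points (adjusted p = 0.00825). Osbp (-30.9) and the window shared by Alyref and Anapc11 (-28.5, both adjusted p = 0.00754) were called at the promoter as they were at the locus. In all, 10 genes were called by fold enrichment at both, 40% of the 25 locus calls and 5.8% of the 172 promoter calls, from peaks that the 2 windows share.

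By covered bases, 3 genes had the smallest p with a higher AHR KO change. Id1, an inhibitor of basic helix-loop-helix factors, had its 1101 bp window filled in all WENR and AHR KO d4 ENR libraries and 193, 246 and 254 bp covered in WT d4 ENR (+42.0 ± 1.44, adjusted p = 1.513e-05). Trp53i11 had the same arrangement with 351, 351 and 392 bp in WT d4 ENR (+33.1 ± 1.01, same adjusted p). Pcnx2 had no window peak in WT d4 ENR and 905 to 989 bp covered in the other 7 libraries (+66.4 ± 2.12, same adjusted p). Lower interactions came from other groups. Lin54, a DNA-binding subunit of the DREAM complex, had 441 and 439 bp covered in WT WENR and 925 to 1051 bp in the other 8 libraries (-32.5 ± 1.19, adjusted p = 1.513e-05), Tmem245 had its window filled in the 3 AHR KO WENR libraries alone, with 262 to 304 bp elsewhere (-53.9 ± 2.90, adjusted p = 0.0001247), and Ciao1, a factor of cytosolic iron-sulphur assembly, had an interaction of -6.88 ± 0.492 points (adjusted p = 0.0004991).

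Groups of genes related to AHR, to the media and to colon cell types were then read against these rates. Over all genes tested, full separation was seen in 8.84% upwards and 9.73% downwards by locus fold enrichment. In the AHR pathway, 0 of 13 loci were called by fold enrichment, 2 showed full separation upwards and 1 downwards, and the median interaction was +1.35 points, against +0.11 over all genes tested. Ahrr, the AHR repressor and itself an AHR target, had a fold enrichment of 7.62 and 7.75 in WT WENR, 4.50, 6.51 and 7.14 in WT d4 ENR, 7.27, 7.64 and 7.92 in AHR KO WENR, and 7.35 and 7.75 in AHR KO d4 ENR. By this measure only the WT libraries of the 2 media lay apart, and the interaction of +21 points did not pass the threshold (adjusted p = 0.161). The other measures of Ahrr went the other way, without a call. The AHR KO change was lower by locus covered bases and by both promoter measures. By promoter fold enrichment the mean percentile was 58.96 in WT WENR and 34.54 in WT d4 ENR, against 57.94 and 22.5 in AHR KO. Neither AHR KO d4 ENR library had a peak in the Ahrr promoter window. At promoters, 2 of 11 genes of the pathway were called higher by covered bases, against 1.3% of all promoters, among them Cyp1b1, a cytochrome P450 induced by AHR. Its window was filled in all WENR libraries, with 614, 629 and 641 bp covered in WT d4 ENR and 991 and 924 bp in AHR KO d4 ENR (+8.19 ± 1.15, adjusted p = 0.0162). Cyp1a1 (+5.95), Tiparp (+6.28) and Ahr (+1.35) had adjusted p of 0.880, 0.691 and 0.949 at the locus.

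Of fetal-like and regeneration markers, 1 of 17 loci was called by fold enrichment (S100a6, lower), with full separation in 3 upwards and 3 downwards and a median of -1.45 points. Over all genes, 0.0589% were called lower, and 8.84% were fully separated upwards and 9.73% downwards. By covered bases, 0 of 17 were called, 6 showed full separation upwards and 0 downwards, and the median was +5.46 points. Over all genes these were 7.57% upwards and 10.1% downwards, with a median of -0.42. At promoters, 3 of 17 were called higher by covered bases, against 1.3% of all promoters, and 2 of 17 by fold enrichment, against 0.859%. Ly6a, which encodes Sca-1, had its promoter window filled in all WENR and AHR KO d4 ENR libraries and 386, 256 and 295 bp covered in WT d4 ENR (+37.0 ± 4.01, adjusted p = 0.00460), and its locus interaction by fold enrichment was +14.2 points (adjusted p = 0.316). Msln, mesothelin, had 371 and 376 promoter bases covered in WT WENR, none in WT d4 ENR, 357, 399 and 435 in AHR KO WENR, and 264 and 330 in AHR KO d4 ENR (+27.3 ± 3.23, adjusted p = 0.00653), and Krt7, a keratin of simple epithelia, was called alike at +25.5 ± 3.03 (adjusted p = 0.00653). At both promoters every WT d4 ENR library lacked a window peak. In the locus, Msln had +40.4 ± 5.99 points by covered bases (adjusted p = 0.0873).

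YAP/TEAD targets held 0 calls among 23 loci by either measure, with medians of -2.31 points by fold enrichment and +0.03 by covered bases. Their members Ccn1 (+1.97, adjusted p = 0.892), Ccn2 (+6.53, 0.572) and Amotl2 (+9.41, 0.556), secreted or junctional proteins commonly read as YAP activity, did not pass the threshold. Of 15 Hippo kinases, YAP, TAZ and TEAD factors, none was called at the locus, with medians of -1.06 points by fold enrichment and -1.36 by covered bases. By fold enrichment the list ran from -13.97 to +25.2 points, the latter for Lats1, with +18.2 for Lats2. At the promoter 1 of 13 was called higher by both measures, against 0.859% of all promoters by fold enrichment and 1.3% by covered bases. It was Stk4, a Hippo kinase (+47.8 by fold enrichment and +21.9 by covered bases, the latter with adjusted p = 0.0305). Of 21 Wnt targets and stem cell genes, 1 was called at the locus, Ephb3 by covered bases, and 6 showed full separation upwards and 2 downwards by that measure (median +2.90). Over all genes, 0.0353% were called higher by covered bases, and 7.57% were fully separated upwards and 10.1% downwards. The stem cell genes Lgr5 (-4.81, adjusted p = 0.838) and Ascl2 (+0.19, 0.994) had no call. At the promoter by fold enrichment, 1 of 21 was called lower, the R-spondin receptor gene Lgr4 (-18.6), against 0.46% of all promoters.

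By fold enrichment, 8.84% of all genes tested were fully separated upwards and 9.73% downwards, and by covered bases 7.57% and 10.1%. Intestinal identity transcription factors had 0 calls among 20 loci by fold enrichment, 6 with full separation downwards and 0 upwards, and the lowest median of the lists at -10.3 points. Members were Rxra at -28.0 (adjusted p = 0.130) and Elf3 at -14.2 (0.274), and Cdx2 was at -12.2 (0.525). By covered bases the same list had 2 upwards and 1 downwards and a median of +0.91 points. Esrra, above, was its 1 promoter call, lower by fold enrichment, out of 17 tested and against 0.46% of all promoters. Absorptive colonocyte genes had 0 calls among 23 loci, 7 with full separation downwards and 0 upwards, and a median of -5.15 points by fold enrichment, against +2.25 by covered bases. Car2, a carbonic anhydrase, had a fold enrichment of 2.89 and 2.99 in WT WENR, 4.47, 5.91 and 5.05 in WT d4 ENR, 2.74, 3.04 and 2.82 in AHR KO WENR, and 3.44 and 3.83 in AHR KO d4 ENR. Both genotypes were higher in d4 ENR with no overlap between media, and the interaction of -25.3 points did not pass the threshold (adjusted p = 0.190). Slc26a3, the chloride-bicarbonate exchanger of colonocytes, had -18.8 points (0.214) with overlapping media in WT, and Krt20 had +1.26 (0.944).

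Secretory cell genes gave 0 calls at the locus by either measure. At promoters by fold enrichment, 1 of 10 tuft cell genes and 1 of 10 enteroendocrine genes were called higher, against 0.859% of all promoters, and by covered bases 1 of 10 tuft cell genes was, against 1.3%. Goblet cell genes had 0 of 15 called at the locus and a median of +5.23 points by fold enrichment, with Spink4 at +33.3 (adjusted p = 0.153) and Muc2 at +8.19 (0.661), and Clca1 had +44.4 points by covered bases (0.148). Among tuft cell genes Trpm5, a cation channel of chemosensory cells, was called at the promoter by both measures, with 604 and 578 bp covered in WT WENR, none in WT d4 ENR, 621, 572 and 808 in AHR KO WENR, and 413 and 565 in AHR KO d4 ENR (+38.2 ± 6.20, adjusted p = 0.0305). Among enteroendocrine genes 0 of 14 were called at the locus by fold enrichment (median -2.24), and Chga was at -8.78 (adjusted p = 0.677). AP-1 factors had 0 of 13 called at the locus (median -4.07), ETS factors 0 of 15 (-0.63), gastric and anterior genes 0 of 14 (+0.86) and integrins, laminins and adhesion genes 0 of 24 (+2.54), with Itgb8 at +49.8 (0.140). Sox9 (-0.57, 0.974), Myc (-6.12, 0.604) and Clu (+9.66, 0.606) had no call.

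Housekeeping lists were read in the same way, against full separation in 7.57% of all genes upwards and 10.1% downwards by covered bases. By fold enrichment, the measure below unless another is named, the shares were 8.84% and 9.73%. Ribosomal protein genes had 0 of 24 called, 7 with full separation downwards and 0 upwards and a median of -5.74 points, against 4 upwards, 0 downwards and a median of -0.30 by covered bases. Of their 23 promoters, 1 was called lower by fold enrichment, against 0.46% of all promoters. Genes of oxidative phosphorylation and fatty acid metabolism had 0 of 23 called, 6 downwards and 1 upwards and a median of -3.76 points. Cpt2, which handles fatty acids at the mitochondrial inner membrane, was at -29.9 (adjusted p = 0.0821). It was also the 1 of 22 called lower at the promoter by fold enrichment (-21.3), against 0.46% of all promoters. Genes of DNA replication and cell cycle had 0 of 24 called and 2 in each direction. The markers of colon epithelium had 0 of 14 called, 5 downwards and 0 upwards and a median of -8.76, those of mesenchyme 0 of 9 called with a median of +3.57, those of immune cells 0 of 8 with -0.18, and those of endothelium and nerve 0 of 9 with +6.90. Of the 79 genes tested within 15 Mb of Ahr, 0 were called at the locus, and 11 showed full separation upwards and 17 downwards (median +0.96). Members of a list share libraries, and these counts are a description to which no test of the list belongs.

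**Figure D5:**
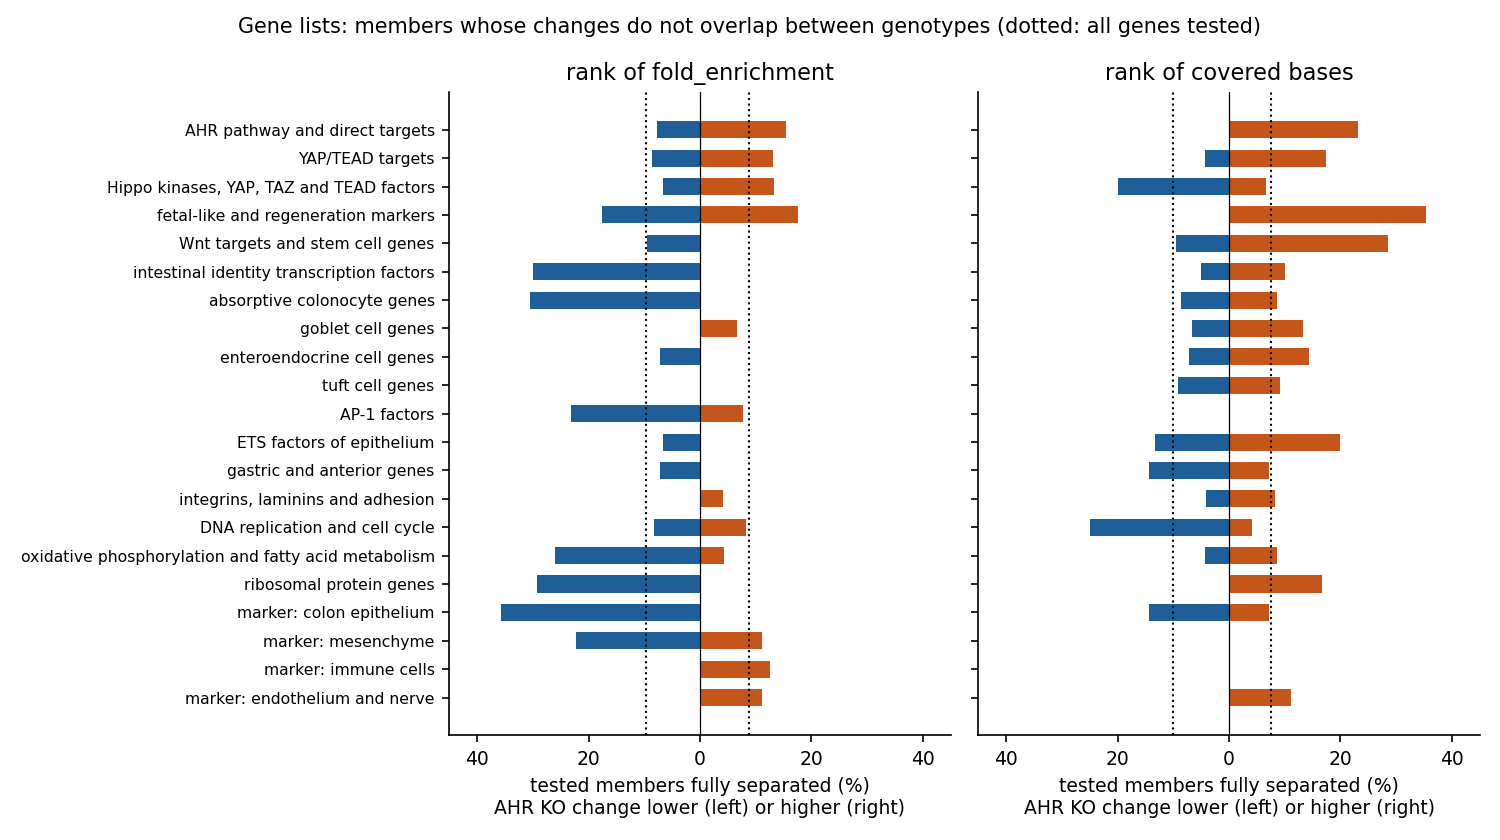
Share of the tested members of each gene list with full separation upwards or downwards at gene loci, by fold enrichment and by covered bases. The dotted lines are the shares over all genes (8.84% and 9.73% by fold enrichment, 7.57% and 10.1% by covered bases), and 6 of 20 intestinal identity factors lie downwards by fold enrichment.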

How the data were processed

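Omni-ATAC libraries of colon organoids were analysed from 10 peak lists, 1 per library. Per the file headers, the authors made every list from 1 library by broad peak calling (MACS 2.2.7.1, no control), from reads aligned to GRCm38 in the nf-core/atacseq pipeline with BWA and filtered. The deposited values are the length of each peak, the pileup (a signal, fragments covering a base), the fold enrichment (a ratio, pileup divided by local background) and p and q as -log10, all averaged over the peak. Replicates were not pooled in these lists, and no read counts per peak were used here. The fragment totals of 30354729 to 49126792 and the mean fragment lengths were read from the file headers, and they set the precision of every value. Since a peak list holds only regions past the caller's threshold, a gene without a peak was given 0, which is not evidence of closed chromatin.

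Groups followed the genotype and treatment labels. For 21938 protein-coding genes (GENCODE M21, GRCm38), the highest fold enrichment and the covered bases of peaks overlapping the locus or the promoter by at least 1 bp were ranked within each library, with mid-ranks for ties, in Python 3.11.15 (numpy 2.4.6, pandas 2.3.3, matplotlib 3.10.9). The interaction was tested in limma 3.58.1 (R 4.3.3, statmod 1.5.0; empirical Bayes with trend and robust options, 2-sided, Benjamini-Hochberg over all genes tested, threshold 0.05), with all 4 groups sharing one estimate of spread and 6 residual degrees of freedom. Library measures were compared by an exact permutation test that exchanged genotype labels within a medium. The scripts were tested on simulated percentiles with independent noise smaller than the residual spread. That simulation did not model missing peaks, peak length or library quality, so it does not show how the fit performs on these data. A gene was named if it had one of the smallest p in each direction (8 by locus fold enrichment, 5 by locus covered bases, 5 by promoter fold enrichment and 3 by promoter covered bases, without clone names), if it was among the up to 4 members of a gene list with the smallest unadjusted p under 0.05 at the locus, or if the study names it. The named genes and the 21 gene lists were chosen with earlier results of these data known. Some named genes are not reported here, and the counts of the gene lists include them. Alternatives changed the windows, peak filters, scaling (log2 with a pseudocount of 1 for fold enrichment and 200 bp for covered bases, centred or not), model and libraries. Sequences were read from the GRCm38.p6 reference.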

Additional observations from a re-analysis of the deposited data

Results flagged for a closer look

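The results below had a change between media that differed between the genotypes by the interaction test itself (limma, Benjamini-Hochberg). In the rank of fold enrichment over loci, 15 genes had a higher and 10 a lower AHR KO change. In the rank of covered bases over loci, 6 were higher. At promoters, 112 were higher and 60 lower by fold enrichment, and 169 were higher and 17 lower by covered bases. The share of coverage in peaks, lowest in WT d4 ENR, moved with these results, and with it as a covariate the counts were 0, 0, 46 and 110. Values below are interactions in percentile points.

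At loci by fold enrichment, the named genes with a higher AHR KO change were Olfr1358 (+59.3), Cdx4 (+53.2), Srp54c (+45.2), Btnl9 (+45.1), Cstl1 (+43.5), Vmn1r215 (+34.3) and, from 1 shared peak, Hgh1 and Tssk5 (+30.5). Those with a lower one were Fam180a (-44.1), Lap3 (-43.9), Osbp (-42.8), Alyref and Anapc11 from 1 shared peak (-40.6), Catsperz (-39.95), Kcnk4 (-39.0), Csnk1g2 (-38.8) and S100a6 (-28.6). Fam180a passed the filter only through AHR KO WENR, so that it had to differ, and its call is no evidence of a difference. By covered bases the genes were Comp (+44.97), Kcnq5 (+40.5), Fcho2 (+32.2), Pkd1l1 (+31.5) and Ephb3 (+27.5).

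At promoters by fold enrichment, the higher interactions were those of Lancl2 (+74.6), Trim39 (+74.1), Micu3 (+70.3), Nfatc3 (+55.2), Uggt1 (+48.1), Stk4 (+47.8), Msln (+27.0), Trpm5 (+26.7) and Krt7 (+24.8). The lower ones were those of Scrt2 (-55.0), Pdia5 (-34.7), Osbp (-30.9), Esrra (-29.2), Alyref and Anapc11 (-28.5), and Cpt2 (-21.3). Scrt2 passed the filter only through AHR KO WENR, so that it had to differ, and its call is no evidence of a difference. By covered bases, the higher ones were Pcnx2 (+66.4), Id1 (+42.0), Trpm5 (+38.2), Ly6a (+37.0), Trp53i11 (+33.1), Msln (+27.3), Krt7 (+25.5), Stk4 (+21.9) and Cyp1b1 (+8.19), and the lower ones were Tmem245 (-53.9), Lin54 (-32.5) and Ciao1 (-6.88).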

How the results depend on the processing

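The calls were few in a design of 2 to 3 libraries a group, and their number depended on the library set and the scaling, while signs were more stable. Of the values of named genes and lists, 727 were counted as kept under an alternative. Of named genes, 179 values kept the direction only, 9 passed the threshold anew and 56 changed sign. For a gene, kept means the same direction and side of the threshold. For a list, it means a median that moved by less than its members' median SE, whatever its sign. With equal lists, some medians by covered bases changed sign within that margin, such as absorptive colonocyte (+2.25 to -0.26) and tuft cell genes (+0.68 to -2.93). A peak list gives no reads below the caller's threshold, so differences there were not detectable. The cause of the changes below was not tested.

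Locus calls by fold enrichment (25) became 42 with peak lists of equal length, 46 with genes without a peak at percentile 0, 3 in the gene body alone, 11 with 20 kb on each side, 12 with the sum of fold enrichment times covered bases, and 0 on log2 values, centred or not (2216 and 493 at an unadjusted p under 0.05), or with the share of coverage in peaks as a covariate. Of the 25, all kept their sign in the last 3 settings, and 17 did with the sum. Locus calls by covered bases (6) became 136 with equal lists, 157 with peaks of -log10 q of at least 5, 26 with percentile 0, 19 and 131 on centred and uncentred log2 values (the latter shifts the median of all genes by 0.37), 38 in the gene body, 119 without trend and robust options and 0 with the covariate (1862 at an unadjusted p under 0.05). Promoter calls by fold enrichment (172) became 383 with the q filter, 70 with percentile 0, 74 on uncentred log2 values, 367 by peak midpoint, 46 with 3 kb on each side, 50 over all transcripts, 46 with the covariate and 279 without trend. Promoter calls by covered bases (186) became 373 with the q filter, 706 and 390 on centred and uncentred log2 values (shift of 0.15 in the latter), 93 with 3 kb and 110 with the covariate.

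Leaving out 1 library at a time gave 0 to 312 and 0 to 212 locus calls by fold enrichment and covered bases, and 24 to 866 and 99 to 1297 promoter calls. By fold enrichment at loci, calls were 0 without any WENR or AHR KO d4 ENR library and 52, 7 and 312 without WT d4 ENR replicates 1, 2 and 3. By covered bases they were 34, 11 and 212 without those 3. At promoters by fold enrichment they were 39 and 24 without WT WENR replicates 1 and 2, 331 and 866 without WT d4 ENR replicates 1 and 3, 40 without each AHR KO WENR library and 97 without AHR KO d4 ENR replicate 1, and by covered bases 99 and 110, 307 and 1297, and 118 and 117 without AHR KO WENR replicates 2 and 3. Ranges that crossed 0 were -1.09 to 3.79 for Ahr, -2.09 to 2.47 for Ascl2, -0.29 to 4.23 for Ccn1, -2.53 to 13.7 for Cyp1a1, -3.17 to 5.69 for Krt20, -9.90 to 0.37 for Lgr5 and -3.00 to 1.85 for Sox9.

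With the replicate number as a block, calls were 0 and 0 at loci and 23 and 65 at promoters by fold enrichment and covered bases, and with the block within genotype 0, 0, 26 and 22 (2440 and 2301 genes at loci at an unadjusted p under 0.05 with the block). Same-numbered libraries did not deviate together, with correlations of 0.016 in both WT pairs and -0.089 and -0.034 in AHR KO. With so few libraries, such correlations cannot exclude that same-numbered libraries shared an animal or culture, and the labels do not say. Under either block Ahr was at -2.63, Ascl2 at -0.039 and Krt20 at -0.85.

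Interactions of the other sign were, with the sum of fold enrichment times covered bases, Srp54c -1.07, Cstl1 -1.45, Osbp 12.9, Kcnk4 3.24, Lap3 6.24, Ahr -6.07, Ccn1 -2.38, Ccn2 -5.58, Clu -0.31, Slc26a3 0.80, Myc 9.82, Rxra 5.06, Ascl2 -6.60 and Krt20 -3.93. In the gene body alone they were Olfr1358 -8.76, Osbp 7.57, Kcnk4 10.4, Csnk1g2 10.4, Cyp1a1 -14.5, Ccn2 -1.22 and Amotl2 -1.31. With 20 kb on each side they were Vmn1r215 -11.6, Anapc11 4.53, Ahr -1.64, Cyp1a1 -4.63, Ccn1 -16.0, Muc2 -0.45, Chga 7.76, Ascl2 -0.32 and Krt20 -14.0. At promoters, 3 kb on each side gave Trim39 -0.22, Nfatc3 -0.19, Uggt1 -17.2 and Scrt2 22.6, all transcripts gave Trim39 -0.18, Nfatc3 -0.36 and Uggt1 -17.8, the peak midpoint gave Alyref 7.17, and the q filter gave Pcnx2 -3.17. Cyp1a1 was at -9.12 by midpoint, Ephb3 at -2.01 with equal lists, and Ahr at -0.0057 on centred log2 values. Sox9 was at 0.014 with equal lists, 3.02 with the q filter, 2.65 with percentile 0, 0.0018 and 0.071 on centred and uncentred log2 values and 0.89 with the covariate, and Lgr5 at 0.017 on uncentred log2 values and 2.86 with the covariate.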
